A study of Mus musculus with 15 samples.

Results

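The 4 PDA30364 tumors whose arrays were titled MEKi+CD40, called combination tumors here, were compared with the 4 tumors titled Ctrl. These 8 arrays, chosen by their titles alone, were part of a series of 15, whose other arrays came from 4 tumors treated with CD40 Ab and 3 treated with MEKi alone. PDA30364 is a mouse pancreatic ductal adenocarcinoma (PDA) line, established from a single tumor of an engineered mouse that carried mutant P53, so all groups share this mutation. The cells were injected in PBS and Matrigel under the flank skin of C57BL/6-Ly5.1 mice aged 6 to 12 weeks, and whole pieces of tumor were snap frozen on day 26. Combination mice were given GDC-0623, an inhibitor of MEK (MEKi), daily at 30 mg/kg for about 2 weeks. They also received agonist anti-CD40 Ab into the peritoneum on treatment days 3, 5 and 7 and on the day before analysis. Control mice were given vehicle (MCT) and control IgG by the same schedule. The model is limited to 1 tumor line at a subcutaneous site, and a whole piece mixes tumor cells, stroma, leukocytes and neighboring tissue.

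MEK is the kinase that activates ERK, which drives a transcriptional program of growth, with phosphatases and Sprouty proteins as its feedback inhibitors. CD40 is a receptor of the TNF receptor family on dendritic cells, macrophages and B cells, and its engagement by an agonist Ab replaces the help that T cells give to antigen-presenting cells. T cells and NK cells that are activated in this way can secrete IFNγ, which raises antigen presentation and chemokine genes in neighboring cells, in part through IRF1. The comparison asks what both agents together leave in the tumor after 2 weeks, relative to tumors given neither.

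The values are log2 signals per probe set after robust multi-array average (RMA) processing. Array medians were 5.16 to 5.20 in control and 5.21 to 5.24 in combination tumors, without overlap (exact permutation p = 0.0286, adjusted 0.114 over 8 measures). Over all probe sets pairs of arrays correlated with r = 0.994 to 0.996 among combination, 0.995 to 0.997 among control and 0.985 to 0.991 between the groups. The 18S control signal was higher in combination tumors (13.24 ± 0.11 against 12.86 ± 0.14, SD, n = 4 each), with the same exact permutation p, below which 4 against 4 arrays cannot go. The ductal keratin gene Krt19 read 13.13, 13.05, 13.23 and 13.09 in the control and 13.20, 13.14, 13.32 and 13.35 in the combination arrays, and the genes of normal acinar and endocrine pancreas had a mean level of 4.73 to 4.89, below the array medians. Skeletal muscle genes, in contrast, had a mean level of 4.46 to 6.28 in control and 7.25 to 8.68 in combination arrays, and 23 of 26 passed the test. The part of muscle in the other results was not tested. In the comparison of the 8 arrays 6450 probe sets passed, and in a fit of all 15 arrays 5021. In a fit of all 15 arrays with the mean levels of the muscle and skin lists as covariates 1149 passed. Combination and muscle level move together, so that fit cannot tell them apart. Fewer members passed there in nearly every list, and each list below is given with its value in that fit where its median or count moved by more than 1.5 times. All combination tumors had tumor numbers under 10000, as did 3 of the 4 controls. In bulk tumor RNA, a larger number of cells of a type and more RNA per cell cannot be told apart.

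In total, 1875 of 18193 genes (10.3%) rose and 1586 (8.72%) fell in combination tumors (limma, Benjamini-Hochberg adjusted p under 0.05). Rises were larger than falls: the median log2 fold change (FC) was 0.66 among risen and -0.36 among fallen genes, 493 genes rose at least 2-fold and 78 fell as much, and at least 8-fold changes were seen in 15 and 3 genes. The 4 combination arrays lay wholly above the 4 controls in 2239 genes (12.3%) and wholly below in 2628 (14.4%). By probe set, 3192 rose and 3258 fell, but after centring each array on its median the split was 2854 to 4759. The choice of scaling therefore moves the balance of rises and falls, while the median log2 FC of all genes was -0.04 as deposited and -0.08 after centring.

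Transcriptional output of ERK was lower in the combination tumors. Of 19 measured ERK output genes, 14 fell, 0 rose and 5 did not pass, with a median log2 FC of -0.48. The mean level of these genes was 9.07, 9.0, 9.14 and 9.07 in the control arrays and 8.60, 8.61, 8.64 and 8.64 in the combination arrays. The combination arrays were close to each other and all lay below the lowest control.
The feedback phosphatase gene Dusp6, whose product removes the activating phosphate groups of ERK, read 10.69, 10.81, 10.84 and 10.84 in the control and 10.35, 10.37, 10.18 and 10.35 in the combination arrays (log2 FC -0.48 ± 0.07, adjusted p = 0.00167). Etv4, a PEA3 family transcription factor gene under ERK control, read 8.08, 7.84, 8.09 and 7.84 in the control and 7.22, 7.28, 7.19 and 7.11 in the combination arrays (log2 FC -0.76 ± 0.08, adjusted p = 0.000479). Fosl1, which encodes the AP-1 subunit FRA1, read 9.03, 8.78, 9.19 and 8.81 in the control and 7.50, 8.10, 8.11 and 8.09 in the combination arrays (log2 FC -1.0 ± 0.15, adjusted p = 0.00251). In these genes no combination array overlapped a control array, although combination replicate 1 stood lower than the others for Fosl1. The immediate early gene Egr1 fell by 0.84 on the log2 scale (adjusted p = 0.00136), as did the feedback inhibitor genes Spry2 and Spred2 (-0.63 and -0.54) and the PEA3 gene Etv5 (-0.66). Spry4 had a log2 FC of -0.32 (adjusted p = 0.0263) and Myc of -0.29 (adjusted p = 0.0296), and both calls were weak: Spry4 did not pass without control replicates 1 and 3 and combination replicates 1 and 2 (adjusted p up to 0.0783), and Myc did not pass without control replicates 1, 2, 3 and 4 and combination replicate 2 (adjusted p up to 0.0723). Here and below, arrays listed in this way were each left out in turn, never together. Ccnd1, the cyclin D1 gene that ERK signaling induces in many cells, did not pass (log2 FC -0.04, adjusted p = 0.701). The ERK output median with the muscle and skin list levels as covariates was -0.65 and 6 of its genes fell.

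The genes of the cascade itself moved little. Of 23 components of the pathway of RAF, MEK and ERK, 2 rose and 4 fell (all genes 10.3% and 8.72%), with a median log2 FC of -0.05. With the covariates 0 rose and 1 fell, and without control replicate 1 2 fell. The 2 genes that rose were the adaptor gene Gab1 (0.30) and the kinase gene Rps6ka3 (0.29). The 4 that fell were the scaffold gene Shoc2 (-0.43), the exchange factor gene Sos2 (-0.37), the MEK1 gene Map2k1 (-0.33) and the adaptor gene Shc1 (-0.30), and the MEK2 gene Map2k2 had a log2 FC of -0.01 (adjusted p = 0.908). Rps6ka3 is uncertain, because another of its probe sets fell and the mean over its probe sets turned to -0.07. With each array left out in turn, Gab1 did not pass without control replicates 2, 3 and 4 and combination replicates 1, 2 and 3 (adjusted p up to 0.0765), Rps6ka3 did not pass without control replicates 1, 2 and 3 and combination replicates 1 and 4 (adjusted p up to 0.0599), Sos2 did not pass without control replicate 1 (adjusted p up to 0.05) and Map2k1 did not pass without control replicates 1, 3 and 4 and combination replicate 4 (adjusted p up to 0.0615).
Among 33 receptor tyrosine kinases, 9 rose and 1 fell (median 0.14, and 0.05 without control replicate 2). In the fit with covariates 3 rose and the median was 0.03. Fgfr3, a fibroblast growth factor receptor, rose by 1.36, the HGF receptor gene Met by 0.53 and Egfr by 0.55 (adjusted p = 0.00015 to 0.00462). The TAM family member Axl was the 1 that fell (log2 FC -0.39 ± 0.07, adjusted p = 0.00652), while Mertk of the same family, which macrophages use to take up dying cells, rose (log2 FC 0.86 ± 0.08, adjusted p = 0.00024).

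Ligands of the EGFR family fell in 3 of 9 genes and rose in none, with a median log2 FC of -0.18. Betacellulin, encoded by Btc, was at 8.57, 7.94, 8.95 and 8.29 in the control and 6.13, 5.86, 6.41 and 6.31 in the combination arrays (log2 FC -2.26 ± 0.20, adjusted p = 0.000232). Epiregulin, encoded by Ereg, was at 7.42, 7.28, 7.42 and 7.41 in the control and 6.16, 5.85, 6.04 and 6.10 in the combination arrays (log2 FC -1.34 ± 0.08, adjusted p = 3.25e-05). The third was Hbegf, the gene of heparin-binding EGF-like growth factor, with a smaller change (log2 FC -0.40 ± 0.08, adjusted p = 0.00878). Btc and Ereg were 4.79-fold and 2.54-fold lower in combination tumors, and the 2 groups of arrays were more than 1 log2 unit apart in both genes.

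**Figure D1:**
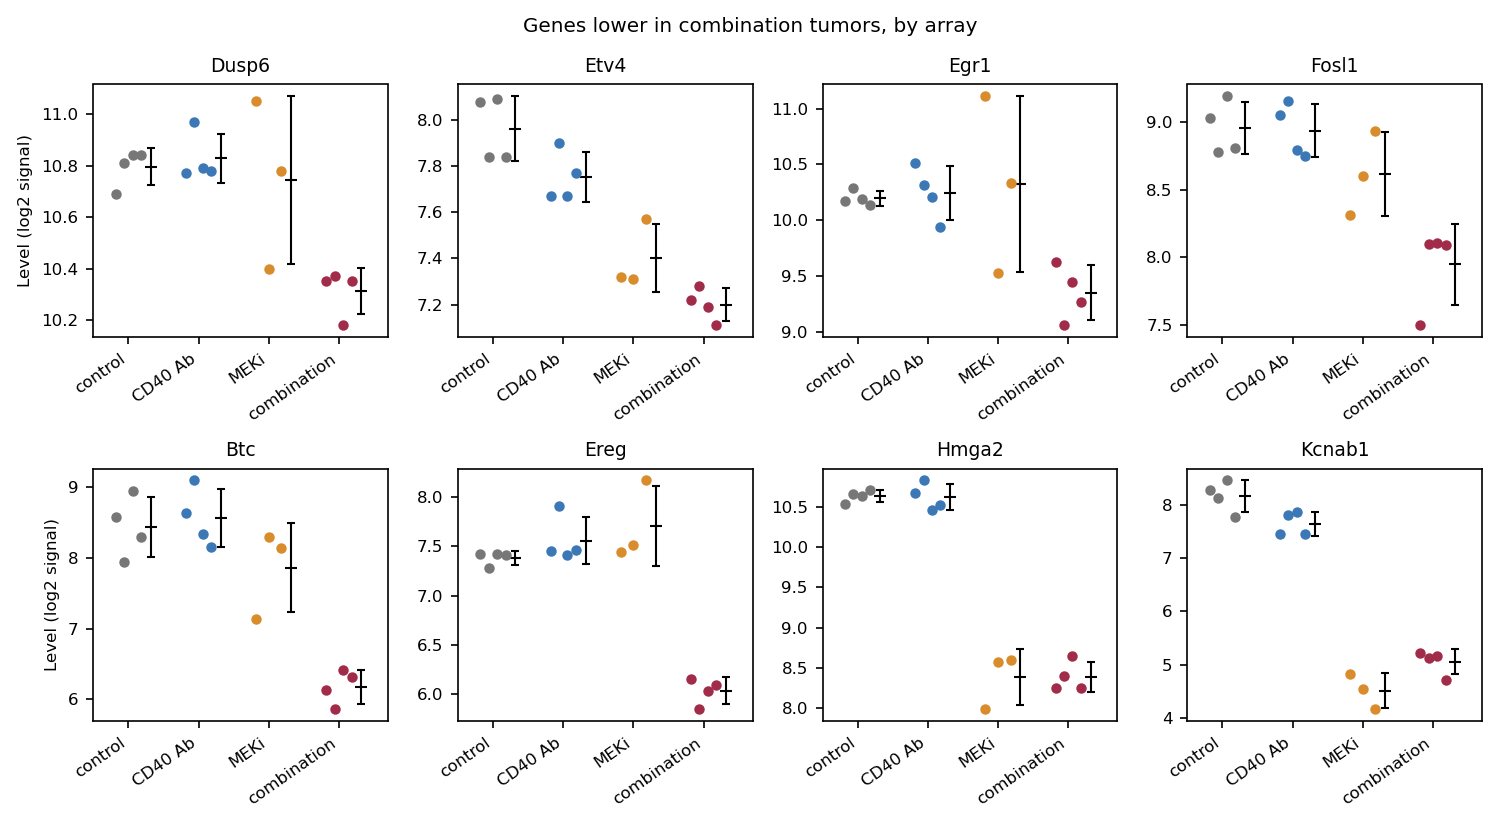
Level (log2 signal) of 8 genes by group, each point being 1 array, with group mean and SD (bars; n = 4 control, 4 CD40 Ab, 3 MEKi and 4 combination). All 4 combination arrays lie below all 4 control arrays in every panel, and Btc and Ereg also lie below the CD40 Ab and MEKi arrays.

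Genes of mitosis were lower, those of DNA replication much less so. In the list of 28 genes of mitosis and G2/M 21 fell and 0 rose, with log2 FCs over the whole list from -0.92 to -0.37 around a median of -0.70. That count rested on single arrays: 1 gene fell without control replicate 1 or 3, 3 without control replicate 2 and 4 without combination replicate 1, against 14 to 24 without each of the others, while the list median stayed between -0.82 and -0.54. Of 33 DNA replication genes, 4 fell, which is 12.1% and close to the 8.72% of all genes, with a median of -0.17. These 4 were the ligase gene Lig1 (-0.39), the polymerase gene Pole (-0.37), the origin recognition gene Orc6 (-0.28) and the ribonucleotide reductase gene Rrm2 (-0.46). Leaving out combination replicate 3 gave 9 replication genes that fell, leaving out control replicate 1 or 3 or combination replicate 4 gave 0, and leaving out control replicate 2 or 4 or combination replicate 1 gave 1 or 2. Cdk1, the kinase that drives entry into mitosis, read 9.92, 9.68, 9.79 and 9.39 in the control and 8.86, 9.21, 9.34 and 8.62 in the combination arrays (log2 FC -0.69 ± 0.17, adjusted p = 0.0232). The groups did not overlap but came within 0.05 of each other, and replicates 1 and 4 were the lowest combination arrays. Foxm1, encoding the transcription factor of the G2/M program, fell by 0.65 on the log2 scale (adjusted p = 0.0082). For Mki67, whose product marks cycling cells, the log2 FC was -0.58 (adjusted p = 0.0408). With each array left out in turn, Cdk1 did not pass without control replicates 1, 2 and 3 and combination replicate 1 (adjusted p up to 0.0708) and Mki67 did not pass without control replicates 1, 2 and 3 and combination replicates 1, 2 and 4 (adjusted p up to 0.111). The calls of the replication genes were weak as well: Lig1 did not pass without control replicates 1, 2, 3 and 4 and combination replicates 1 and 4 (adjusted p up to 0.121), Pole did not pass without control replicates 1, 2, 3 and 4 and combination replicates 1 and 4 (adjusted p up to 0.095), Orc6 did not pass without control replicates 1, 2, 3 and 4 and combination replicates 1, 2 and 4 (adjusted p up to 0.112) and Rrm2 did not pass without control replicates 1 and 3 and combination replicate 4 (adjusted p up to 0.063). With the muscle and skin covariates the median of the mitosis list was -0.12 and none of its genes passed, and that of the DNA replication list turned to 0.09, also with none passing.

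The promoter of Cdk1 is shown because the mitotic genes fell together and share promoter elements. Sequences here and below are the bases just upstream of the annotated start, from RefSeq on GRCm38.p6, read 5' to 3' on the strand of the gene. Capitals mark the cell cycle homology region TTTGAA and the CCAAT box, searched on both strands, which do not overlap each other.
Cdk1, chr10:69352913-69353012, minus strand: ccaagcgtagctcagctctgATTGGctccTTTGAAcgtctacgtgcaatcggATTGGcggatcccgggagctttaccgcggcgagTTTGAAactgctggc
A CCAAT box was found within 250 bases upstream of the start in 20 of 23 mitosis genes with a promoter entry and in 39.4% of 14452 measured genes, and TTTGAA in 9 of 23 and 14.1%. A match describes the letters of the sequence and not the binding of a factor.

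Sterol synthesis genes fell in 12 of 19 and rose in none (median -0.44), among them Srebf2, the gene of the transcription factor that controls the pathway (log2 FC -0.51 ± 0.08, adjusted p = 0.00405). Under the muscle and skin covariates this median turned to 0.04 and no member passed. The count fell to 1 without control replicate 1 or 3 and to 5 or 6 without combination replicate 1, 2 or 4. Ribosome biogenesis genes fell in 9 of 24 with a small median of -0.16, for example Utp4 (-0.43) and Pes1 (-0.31), both involved in ribosomal RNA maturation. Here 3 to 5 fell without any 1 array other than combination replicate 3, and none with the covariates (median -0.11). Among 23 cyclin, CDK and CDK inhibitor genes outside the mitosis list, 1 rose (4.35%) and 1 fell (4.35%), less often than all genes (10.3% and 8.72%). The 1 that rose was Cdkn1a, which encodes the cell cycle inhibitor p21 (log2 FC 0.76 ± 0.17, adjusted p = 0.0176), and the 1 that fell was the inhibitor gene Cdkn2b (-0.35, adjusted p = 0.0277). Cdkn1a did not pass without control replicates 1 and 2 (adjusted p up to 0.0568) and Cdkn2b did not pass without control replicates 2, 3 and 4 and combination replicates 2 and 3 (adjusted p up to 0.0739). The p27 gene Cdkn1b and the p57 gene Cdkn1c had log2 FCs of -0.24 (adjusted p = 0.111) and 0.08 (adjusted p = 0.621). No gene of this cyclin list passed with the covariates.

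The largest falls were not in cell cycle genes. Only called genes whose combination and control arrays did not overlap were ranked. The 15 of them that fell most had log2 FCs from -1.77 (Itih2) to -3.80 (Dynap). Kcnab1, a potassium channel subunit gene, read 8.29, 8.14, 8.47 and 7.77 in the control and 5.21, 5.13, 5.17 and 4.72 in the combination arrays (log2 FC -3.11 ± 0.16, adjusted p = 1.7e-05), so that the groups were 2.56 apart at their nearest arrays. Hmga2, the gene of a chromatin protein expressed in embryonic tissue and in many carcinomas, read 10.54, 10.66, 10.64 and 10.72 in the control and 8.25, 8.39, 8.64 and 8.25 in the combination arrays (log2 FC -2.26 ± 0.09, adjusted p = 6.32e-06). The control arrays of Hmga2 were within 0.18 of each other and all far above the highest combination array. The set also held the hyaluronan synthase gene Has3 (-2.08), the calcineurin regulator gene Rcan2 (-2.55), the irritant-gated channel gene Trpa1 (-1.83), the chloride channel accessory gene Clca3a1 (-2.43) and the basophil protease gene Mcpt8 (-2.64), with adjusted p = 3.25e-05 to 0.00016. Of 37 genes in a list of neuronal and synaptic genes, 11 fell and 4 rose. The list was chosen with the largest falls known, so its count is not independent evidence of a direction. Its median was -0.09, and with the covariates -0.04 with 8 down and 0 up. The rises were 1 or 2 without any 1 control array, combination replicate 1 or combination replicate 4, and 11 genes fell each time.

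The IFNγ response was higher in every combination tumor. All 19 measured genes of the core IFNγ response rose, by log2 FCs of 0.41 to 2.15 (median 1.25), where 10.3% of all genes did. Ifng itself, the cytokine gene, read 3.98, 4.00, 3.59 and 4.27 in the control and 5.67, 6.64, 4.99 and 5.53 in the combination arrays (log2 FC 1.75 ± 0.30, adjusted p = 0.00467). Irf1, the gene of the transcription factor that relays the signal, read 9.95, 10.09, 9.71 and 10.19 in the control and 11.29, 11.52, 10.87 and 11.29 in the combination arrays (log2 FC 1.26 ± 0.14, adjusted p = 0.000695). Cxcl10, encoding a chemokine that attracts CXCR3-positive T cells, read 8.29, 8.28, 7.82 and 8.80 in the control and 10.54, 11.07, 9.80 and 10.37 in the combination arrays (log2 FC 2.15 ± 0.27, adjusted p = 0.000978). In all of these the combination arrays were above the controls, with replicate 2 the highest and replicate 3 the lowest combination array. The other ligand genes of CXCR3 rose as well, Cxcl9 by 1.93 and Cxcl11 by 1.92, and the receptor gene Cxcr3 by 0.82 (adjusted p = 0.0168), although Cxcr3 did not pass without control replicate 1 (adjusted p up to 0.0533). Ubd, which encodes the ubiquitin-like protein FAT10 that IFNγ and TNF induce, was 10.8-fold higher (log2 FC 3.43 ± 0.30, adjusted p = 0.000209) and among the 15 largest rises. Without combination replicate 2 the list median was 1.17 and 17 genes rose, and with the muscle and skin covariates it was 1.11 and 4 of the 19 rose.

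The promoters of 4 of these genes are shown for the elements through which interferon-activated factors are known to act. Capitals mark the core of the interferon-stimulated response element, GAAANNGAA on either strand, in Cxcl10, Cxcl9 and Gbp2, and the gamma-activated site TTCNNNGAA in Irf1. In the stretches shown no 2 matches overlap.
Cxcl10, chr5:92348890-92349114, minus strand: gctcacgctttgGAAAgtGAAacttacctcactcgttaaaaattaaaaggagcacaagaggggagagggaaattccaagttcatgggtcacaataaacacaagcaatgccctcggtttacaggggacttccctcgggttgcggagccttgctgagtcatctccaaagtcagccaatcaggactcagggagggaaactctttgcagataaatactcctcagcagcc
Cxcl9, chr5:92328080-92328269, minus strand: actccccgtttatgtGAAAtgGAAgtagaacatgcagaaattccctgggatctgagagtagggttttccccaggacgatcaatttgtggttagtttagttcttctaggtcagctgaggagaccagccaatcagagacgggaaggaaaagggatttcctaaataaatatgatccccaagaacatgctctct
Gbp2, chr3:142620583-142620662, plus strand: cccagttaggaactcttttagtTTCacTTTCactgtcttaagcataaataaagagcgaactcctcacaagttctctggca
Irf1, chr11:53769904-53770013, plus strand: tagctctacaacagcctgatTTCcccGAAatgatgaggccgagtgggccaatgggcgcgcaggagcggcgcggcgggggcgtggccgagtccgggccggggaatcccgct
GAAANNGAA was present upstream in 7 of 14 core IFNγ response genes and 7 of 8 genes of the interferon-inducible GTPases with a promoter entry, against 7.51% of 14452 measured genes. TTCNNNGAA was present in 3 of 8 of the GTPase genes and in 7.42% of all. Again, a match is a description of the sequence.

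Of 12 interferon-inducible GTPase genes of the GBP and IRG families, which act against intracellular microbes, 10 rose (median 1.24), for example Gbp6 (2.03), Igtp (1.46), Irgm2 (1.26) and Gbp2 (1.01). Members of the GBP family are near-identical in places, so their probe sets may read each other. Genes counted as type I interferon-stimulated rose in 21 of 29 (median 0.72). Ifi27l2a was the highest of them (log2 FC 2.03 ± 0.13, adjusted p = 5.37e-05), followed by Parp14 (1.53) and Ifit2 (1.20). The cytosolic DNA sensor adaptor gene Sting1 rose by 1.16 and Stat2, a subunit of the type I interferon-activated factor, by 0.74 (adjusted p = 0.0019 to 0.00291). Within the JAK and STAT pathway the IFNγ receptor gene Ifngr1 rose (log2 FC 0.63 ± 0.07, adjusted p = 0.000695), while Socs2 fell (log2 FC -0.47 ± 0.06, adjusted p = 0.00112). Of the 31 genes of that pathway 11 rose and 1 fell (median 0.22). The covariates left 4 GTPase genes up (median 1.14), 3 type I genes (0.59) and 2 pathway genes (0.10).

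Antigen presentation genes rose in both classes. Of 16 MHC class I presentation genes 15 rose and all 16 had no overlap between groups (median 0.99). Tap2, a subunit of the transporter that carries peptides into the endoplasmic reticulum, rose by 1.77, the loading factor gene Tapbpl by 1.23, the immunoproteasome subunit gene Psmb10 by 1.12 and the light chain gene B2m by 0.51 (adjusted p = 0.000402 to 0.00455). The transactivator gene of the class, Nlrc5, rose by 1.43 (adjusted p = 0.02), but Nlrc5 did not pass without control replicate 1 and combination replicate 2 (adjusted p up to 0.063). Class I genes rose in 6 of 16 with the covariates (median 0.81).
Among 15 genes of class II presentation 10 rose and none fell (median 1.07). Ciita, the transactivator without which class II genes are silent, read 4.95, 5.13, 4.47 and 5.15 in the control and 6.86, 6.91, 6.55 and 6.74 in the combination arrays (log2 FC 1.84 ± 0.15, adjusted p = 0.000162). The class II alpha chain gene H2-Aa read 11.10, 11.00, 10.87 and 11.47 in the control and 12.44, 12.69, 12.37 and 12.13 in the combination arrays (log2 FC 1.30 ± 0.15, adjusted p = 0.000638). The invariant chain gene Cd74 rose by 1.58, the peptide exchange subunit gene H2-DMb2 by 2.85 and Ctss, encoding the protease that trims the invariant chain, by 1.07. In each of these 5 genes the lowest combination array was above the highest control, and in H2-Aa the control nearest to the combination arrays was replicate 4. Probe sets of H2 genes may read related H2 genes. With the muscle and skin covariates the class II median was 0.66, with 4 genes up and 1 down.
The proximal promoter of H2-Aa is shown with the CCAAT box, here as ATTGG on the gene strand, of the conserved class II module.
H2-Aa, chr17:34287824-34287903, minus strand: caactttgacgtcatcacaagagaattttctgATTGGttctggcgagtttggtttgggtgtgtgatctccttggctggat
The box was present upstream in 8 of 10 class II genes with a promoter entry (39.4% of all).

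Chemokine genes rose in number. Of 25 CXC, CX3C and XC chemokines and receptors, 13 rose and 3 fell (median 0.61), and of 30 CC family genes 12 rose and 0 fell (median 0.37). Without control replicate 3, 7 CC genes rose. The covariates left 3 up and 1 down in the first list (median 0.31) and 1 up in the CC list (median 0.16). Ccl5, made by activated T cells, NK cells and myeloid cells, read 7.33, 7.27, 6.67 and 7.01 in the control and 9.42, 10.66, 9.70 and 9.41 in the combination arrays (log2 FC 2.73 ± 0.27, adjusted p = 0.000367). The monocyte attractant gene Ccl2 read 7.94, 8.00, 7.99 and 7.96 in the control and 9.79, 9.86, 9.02 and 9.75 in the combination arrays (log2 FC 1.63 ± 0.16, adjusted p = 0.000402). All combination arrays were above every control in both genes, with replicate 4 the lowest of them for Ccl5 and replicate 3 for Ccl2. Other rises were those of the CCR6 ligand gene Ccl20 (1.79), the monocyte attractant gene Ccl8 (1.30) and the CXCR6 ligand gene Cxcl16 (0.96). The 3 genes that fell were the platelet chemokine genes Ppbp (-0.77) and Pf4 (-0.54) and the scavenging receptor gene Ackr3 (-0.70), with adjusted p = 0.00702 to 0.0156.
Of 44 interleukins, colony stimulating factors and their receptors, 20 rose and 3 fell (median 0.40), or 5 and 2 with the covariates (median 0.18). Il18, a cytokine that primes T and NK cells for IFNγ production, rose by 1.38, Il15ra, which presents IL-15 to them, by 1.36, and the macrophage growth factor gene Csf1 by 1.17 (adjusted p = 0.000141 to 0.000357). Il15 itself did not pass (-0.07, adjusted p = 0.526). The 3 falls were those of Il33, an alarmin of epithelial and stromal cells (log2 FC -1.58 ± 0.20, adjusted p = 0.00112), the lymphocyte survival cytokine gene Il7 (-0.85) and the IL-4 receptor gene Il4ra (-0.26, adjusted p = 0.0407). Il4ra did not pass without control replicates 1, 2 and 3 and combination replicates 1, 2 and 4 (adjusted p up to 0.102). Il12b, the gene of the shared IL-12 subunit, had a log2 FC of 0.48 and did not pass (adjusted p = 0.183).

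T cell genes were higher, those of the CD8 lineage included. Of 22 genes of the T cell receptor complex and its coreceptors, 15 rose and 7 did not pass (median 0.72). Cd8a read 5.07, 5.26, 5.74 and 5.60 in the control and 6.67, 7.60, 6.79 and 6.63 in the combination arrays (log2 FC 1.50 ± 0.22, adjusted p = 0.00244), and Cd8b1, of the other CD8 chain, rose by 2.38 (adjusted p = 0.000524). For Cd4 the value was 0.09 (adjusted p = 0.517), which did not pass. The CD3 subunit genes Cd3g and Cd3d rose by 2.38 and 1.84, and the T lineage factor gene Bcl11b by 1.74. Combination replicate 2 was the highest array for Cd8a, and its T cell list level was 6.53 against 5.82 to 5.87 in the other combination and 5.04 to 5.25 in the control arrays. Without it the list median was 0.58 and 15 genes rose. With the muscle and skin covariates the median was 0.14 and 1 gene rose.
Of 26 cytotoxic and NK effector genes 12 rose (median 0.67). Gzmb, encoding a granzyme of cytotoxic granules, read 6.64, 6.42, 5.98 and 6.57 in the control and 7.94, 8.51, 7.46 and 7.51 in the combination arrays (log2 FC 1.45 ± 0.23, adjusted p = 0.00338). Nkg7, whose product takes part in granule release, rose by 2.57 and Gzmk by 1.51. The groups were separate in these genes. The perforin gene Prf1 had a log2 FC of 0.02 (adjusted p = 0.924) and the death ligand gene Fasl of 0.74 (adjusted p = 0.073), and neither passed. Granzyme genes lie in a family of close copies, which the probe sets of Gzmd and its neighbors may not tell apart. With the covariates the median was 0.43 and 1 gene rose.

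Among 17 immune checkpoint genes 6 rose (median 0.29). This count was 2 without control replicate 1 or 3, 3 without control replicate 2 or combination replicate 2 or 3, and 1 with the covariates. Pdcd1, which encodes PD-1, was at 4.93, 4.96, 4.66 and 4.92 in the control and 5.55, 6.45, 5.52 and 6.16 in the combination arrays (log2 FC 1.05 ± 0.20, adjusted p = 0.00737). Its ligand gene Cd274 was at 6.43, 6.64, 5.97 and 6.64 in the control and 7.48, 8.37, 7.51 and 7.80 in the combination arrays (log2 FC 1.37 ± 0.21, adjusted p = 0.00291). All combination arrays exceeded all controls in both genes, most in replicate 2. The tryptophan-degrading enzyme gene Ido1 rose by 1.12 (adjusted p = 0.0266) with overlapping arrays, and Ctla4 by 0.85 (adjusted p = 0.0333), although Ido1 did not pass without control replicates 1, 2 and 3 and combination replicates 2 and 3 (adjusted p up to 0.0776) and Ctla4 did not pass without control replicates 1, 3 and 4 and combination replicate 3 (adjusted p up to 0.0868). Of 10 regulatory T cell genes 3 rose (30.0%, against 10.3% of all genes), Ctla4, Tnfrsf18 (0.89) and Ikzf2 (0.64). The defining factor gene Foxp3 had a log2 FC of -0.12 (adjusted p = 0.47). Tnfrsf18 did not pass without control replicates 1, 2, 3 and 4 and combination replicate 3 (adjusted p up to 0.1) and Ikzf2 did not pass without control replicates 1 and 3 (adjusted p up to 0.0543). No regulatory T cell gene passed with the covariates (list median 0.15, then 0.01).
Of 14 B cell genes 3 rose (21.4%, against 10.3% of all genes). They were the kinase gene Blk (log2 FC 1.21 ± 0.14, adjusted p = 0.000622), Spib (1.10) and the adaptor gene Blnk (0.69), while Ms4a1, which encodes CD20, did not pass (0.33, adjusted p = 0.564). The B cell median was 0.28, and 0.13 without combination replicate 2. With the muscle and skin covariates it turned to -0.89 with 5 genes down, and Spib and Blnk turned to -0.25 and -0.43. Spib did not pass without control replicate 1 (adjusted p up to 0.0597) and Blnk did not pass without control replicates 1, 2 and 3 and combination replicates 1 and 3 (adjusted p up to 0.0898). Pigr, the receptor that epithelia use to export IgA and IgM, read 6.99, 4.65, 7.07 and 7.05 in the control and 10.22, 9.88, 10.02 and 10.31 in the combination arrays (log2 FC 3.67 ± 0.48, adjusted p = 0.00133). All 4 combination arrays were above 9.8 and control replicate 2 was far below the other controls. Jchain, of the joining chain of those immunoglobulins, rose by 2.54 (adjusted p = 0.0255) and Ighm, of the IgM heavy chain, by 2.85 (adjusted p = 0.0202). The arrays of Ighm overlapped between the groups, and its combination arrays spread over 3.39 log2 units. Jchain did not pass without control replicates 1, 3 and 4 and combination replicates 2 and 3 (adjusted p up to 0.0748) and Ighm did not pass without control replicates 1 and 3 (adjusted p up to 0.0632).

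Cd40, the gene of the antibody's target, read 5.99, 5.84, 6.02 and 5.90 in the control and 6.65, 7.36, 6.86 and 6.10 in the combination arrays (log2 FC 0.81 ± 0.22, adjusted p = 0.0352). Its groups were only 0.08 apart, and Cd40 did not pass without control replicates 1, 2, 3 and 4 and combination replicates 1 and 3 (adjusted p up to 0.0852). Of 24 genes of the CD40 pathway, the TNF receptor family and costimulation, 7 rose (median 0.30), among them the B cell survival factor gene Tnfsf13b (1.07) and Map3k14, which encodes NIK, the kinase of the noncanonical NF-kB pathway (0.53). Without control replicate 1, 2 or 3 the CD40 list had 4 genes up, and without combination replicate 2 its median was 0.19. The costimulatory ligand gene Cd86 had a log2 FC of 0.41 (adjusted p = 0.118), Cd80 of 0.02 (adjusted p = 0.941) and Cd40lg of -0.08 (adjusted p = 0.649). NF-kB pathway and target genes rose in 13 of 22 (median 0.57), such as the inhibitor gene Nfkbie (1.27), the survival gene Birc3 (0.88) and the ubiquitin editing gene Tnfaip3 (0.77), with adjusted p = 0.000162 to 0.000239. Of the 20 pattern recognition genes 10 rose (median 0.33), including Tlr2 (1.25) and the nucleic acid sensor gene Zbp1 (1.27). With covariates for muscle and skin, the CD40 list had 0 genes up and 1 down (median 0.08), the NF-kB list 4 up (median 0.34) and the pattern recognition list 2 up (median 0.07).

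Macrophage genes rose in 11 of 16 (median 0.69). The lysosomal glycoprotein gene Cd68 rose by 0.93, the lysozyme gene Lyz2 by 1.06, which its probe set may share with Lyz1, and Laptm5 by 0.96, whereas the F4/80 gene Adgre1 did not pass (0.44, adjusted p = 0.0855). The receptor gene for CSF1, Csf1r, rose by 0.77 (adjusted p = 0.023), and Csf1r did not pass without control replicates 1, 2 and 3 and combination replicates 1 and 3 (adjusted p up to 0.0679). The macrophage median was 0.14 with the muscle and skin covariates, with 2 genes up.
Complement genes rose in 12 of 18 (median 0.86). Cfi, the gene of the protease that inactivates C3b, read 7.49, 8.08, 7.87 and 8.23 in the control and 10.61, 9.95, 9.53 and 10.25 in the combination arrays (log2 FC 2.17 ± 0.23, adjusted p = 0.000483). C1qa, which encodes a chain of the initiating C1q complex made largely by macrophages, read 10.36, 10.31, 10.13 and 10.45 in the control and 11.19, 11.38, 11.20 and 10.78 in the combination arrays (log2 FC 0.82 ± 0.12, adjusted p = 0.00254). Both sets of arrays were separate, with a wider gap for Cfi. The C1 protease genes C1ra and C1s1 rose by 1.51 and 1.73, and the C1 inhibitor gene Serping1 by 2.04. The complement median was 0.53 with the covariates, where 3 genes rose.
Of 26 Fc and phagocytic receptor genes 13 rose and 3 fell (median 0.42), with rises of the leukocyte integrin gene Itgb2 (1.36), the fungal glucan receptor gene Clec7a (1.00) and Sirpa (0.94). The falls were those of Axl, Fcrls (-0.51) and Mrc1. Lysosomal genes rose in 19 of 41 and fell in 2 (median 0.24), the latter Gla (-0.31) and the proton pump subunit gene Atp6v1h (-0.38), while the cathepsin gene Ctsh rose by 1.28 and the hexosaminidase gene Hexa by 0.58. Of 19 autophagy genes 5 fell (26.3%, against 8.72% of all genes) and 0 rose. The list median was only -0.065, against -0.04 for all genes. The cargo receptor gene Sqstm1 was among those that fell (log2 FC -0.42 ± 0.07, adjusted p = 0.00527). Under the covariates these 3 lists had 1 up and 2 down (median 0.16), 2 up and 0 down (median 0.12), and 0 up and 1 down.

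Markers of macrophage polarization were mixed. Mrc1, which encodes the mannose receptor and serves as an M2 marker, read 9.60, 9.32, 9.67 and 9.27 in the control and 7.74, 7.87, 8.95 and 7.97 in the combination arrays (log2 FC -1.33 ± 0.24, adjusted p = 0.00592), with combination replicate 3 the highest of its group and below every control. Of 16 M2-like genes 3 rose (18.8%) and 3 fell (18.8%), against 10.3% and 8.72% of all genes (list median 0.41). The median was 0.06 without combination replicate 3 and 0.16 with the covariates, where 1 rose and 0 fell, and 5 rose without combination replicate 1. The rises were those of the chitinase-like gene Chil3 (2.96), the growth factor gene Igf1 (1.08) and the scavenger receptor gene Stab1 (0.41), and besides Mrc1 the lectin gene Mgl2 (-0.78) and Tgfb1 (-0.36) fell. Chil3 did not pass without control replicates 1, 2, 3 and 4 (adjusted p up to 0.068), Stab1 did not pass without control replicates 1, 3 and 4 and combination replicates 2 and 3 (adjusted p up to 0.069) and Mgl2 did not pass without control replicates 1, 2, 3 and 4 and combination replicates 1, 2 and 4 (adjusted p up to 0.115). Arginase 1 (Arg1, 0.22) and Cd163 (0.57) did not pass (adjusted p = 0.577 and 0.415). Of 15 M1-like genes 6 rose, chiefly the chemokine genes named above and Il1b (0.90). The nitric oxide synthase gene Nos2 did not pass (0.17, adjusted p = 0.406). The M1-like median of 0.48 became 0.28 without combination replicate 2 and turned to -0.07 with the covariates, where 1 gene rose.
Granulocytic genes rose in 7 of 16, including S100a8 (1.35), S100a9 (1.18) and the G-CSF receptor gene Csf3r (0.75), while no mast cell gene passed (0 of 9). The granulocytic count was 4 without control replicate 2 or combination replicate 2, and 1 with the covariates, where the median of 0.40 became 0.16. Of 16 dendritic cell genes 5 rose, for example Ly75, which encodes the endocytic receptor DEC-205 (0.58), and Itgax (0.91). Xcr1, the chemokine receptor gene of the cross-presenting subset, was at a log2 FC of -0.27 (adjusted p = 0.224), Flt3 of 0.05 (adjusted p = 0.831) and Ccr7 of 0.58 (adjusted p = 0.253). The dendritic cell median of 0.50 was 0.30 without combination replicate 2 and turned to -0.09 with the covariates, where 1 gene rose and 1 fell.

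Genes of death receptor signaling, necroptosis and pyroptosis rose in 16 of 25 and fell in none (median 0.50, and 0.48 with the covariates, where 5 rose). Tnfsf10, encoding the death ligand TRAIL, read 5.37, 5.89, 5.11 and 5.82 in the control and 7.93, 8.44, 7.31 and 7.73 in the combination arrays (log2 FC 2.31 ± 0.24, adjusted p = 0.000487). The receptor gene Fas rose by 1.15 (adjusted p = 0.000626), the pore-forming gasdermin gene Gsdmd by 0.50 (adjusted p = 0.00657), and the necroptosis genes Ripk3 and Mlkl by 0.49 and 0.40 (adjusted p = 0.0214 and 0.0196). No combination array of these 5 genes overlapped a control. Ripk3 did not pass without control replicates 2 and 3 (adjusted p up to 0.0547) and Mlkl did not pass without control replicate 2 (adjusted p up to 0.0537). Casp8, the initiator caspase gene, had a log2 FC of 0.24 (adjusted p = 0.0561). Of 17 regulators of mitochondrial apoptosis 3 rose (17.6%) and 2 fell (11.8%), against 10.3% and 8.72% of all genes, with a median of 0.07. The rises were those of Birc2 (0.50), Birc3 and Bid (0.38), and the falls those of the survival genes Bcl2 (-0.33) and Bcl2l1 (-0.36). Bcl2l11, the gene of the BH3 protein BIM that ERK marks for degradation, had a log2 FC of -0.01 (adjusted p = 0.977). With the covariates 1 gene of the mitochondrial list rose and 1 fell.

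**Figure D2:**
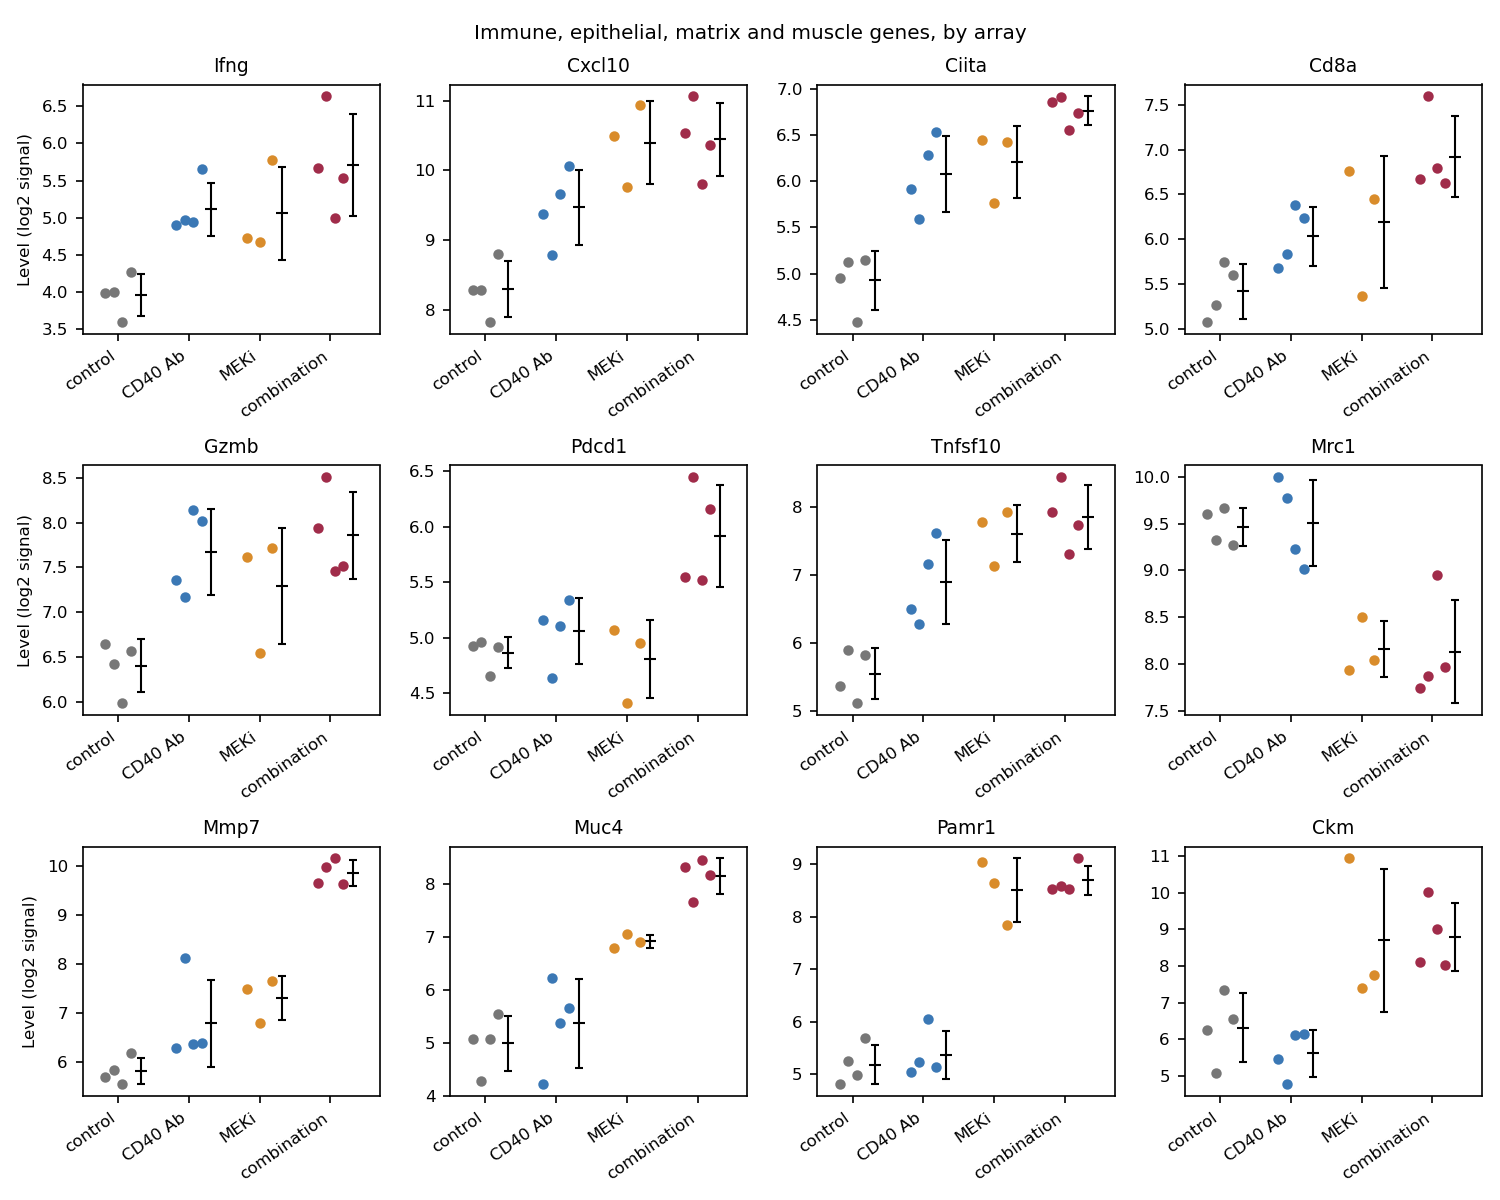
Level (log2 signal) of 12 genes by group, each point being 1 array, with group mean and SD (bars; n = 4 control, 4 CD40 Ab, 3 MEKi and 4 combination). Combination arrays lie above control arrays in every panel but that of Mrc1, where they lie below, and for Mmp7 and Muc4 they lie above all other arrays.

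Epithelial genes changed in both directions. Of 26 genes of ductal and epithelial identity 7 rose (26.9%) and 4 fell (15.4%), against 10.3% and 8.72% of all genes. The list median was 0.06, and with the covariates 5 rose and 1 fell (median 0.25). The adhesion molecule gene Epcam read 8.00, 6.67, 8.71 and 9.11 in the control and 10.48, 9.76, 10.24 and 10.12 in the combination arrays (log2 FC 2.03 ± 0.44, adjusted p = 0.0155), with control replicate 2 the lowest. Prom1, the gene of the apical stem cell marker CD133, rose by 1.80 and the epithelial transcription factor gene Elf3 by 0.96. The 4 genes that fell were the foregut factor genes Foxa2 (-0.71), Gata6 (-0.59) and Foxa1 (-0.43) and the gastric claudin gene Cldn18 (-0.62), which turned to 0.02 with the muscle and skin covariates. Foxa1 did not pass without control replicate 1 (adjusted p up to 0.0538). Cdh1, of E-cadherin, and Vim, of vimentin, had log2 FCs of 0.10 and -0.08 (adjusted p = 0.374 and 0.354), while Cdh2, of N-cadherin, fell (log2 FC -0.76 ± 0.11, adjusted p = 0.00263).
Secreted epithelial products and mucins rose in 12 of 31, and the list median of 0.47 was 0.83 with the covariates, where 6 rose. The largest rise of a gene with a known product was that of Mmp7, which encodes the epithelial metalloproteinase matrilysin, at 5.68, 5.84, 5.54 and 6.18 in the control and 9.66, 9.98, 10.17 and 9.63 in the combination arrays (log2 FC 4.05 ± 0.16, adjusted p = 6.32e-06, 16.6-fold). The membrane mucin gene Muc4 was at 5.07, 4.28, 5.06 and 5.54 in the control and 8.32, 7.66, 8.45 and 8.17 in the combination arrays (log2 FC 3.16 ± 0.25, adjusted p = 0.000154). In both genes the groups were more than 2 log2 units apart. Larger still was 2210407C18Rik (log2 FC 4.11 ± 0.28, adjusted p = 7.75e-05), a gene named by a clone number only. Of the same list, Vsig1 alone fell (log2 FC -0.70 ± 0.09, adjusted p = 0.00129).
The Mmp7 promoter is shown with its AP-1 site TGANTCA in capitals, the letters that dimers of FOS and JUN proteins are known to bind.
Mmp7, chr9:7692000-7692089, plus strand: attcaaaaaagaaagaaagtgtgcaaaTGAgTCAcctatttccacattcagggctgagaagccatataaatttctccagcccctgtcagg
The letters occurred upstream in 6 of 18 metalloproteinase and inhibitor genes with a promoter entry and in 6.70% of all 14452, and in no such ERK output gene (0 of 11).

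Matrix genes were among the largest rises. Of 33 small leucine-rich proteoglycan and matricellular genes 19 rose and 0 fell (median 0.71). Ogn, encoding the proteoglycan osteoglycin, read 3.27, 3.01, 3.75 and 3.21 in the control and 6.58, 6.67, 7.13 and 6.68 in the combination arrays (log2 FC 3.46 ± 0.17, adjusted p = 1.48e-05). Pamr1, a gene of a secreted peptidase-like protein, read 4.82, 5.26, 4.99 and 5.69 in the control and 8.54, 8.58, 8.54 and 9.12 in the combination arrays (log2 FC 3.50 ± 0.19, adjusted p = 2.86e-05). Control and combination arrays of both were nearly 3 log2 units apart. Prelp and Aspn of the same proteoglycan family rose by 2.13 and 1.84, while decorin (Dcn, 0.81) did not pass (adjusted p = 0.141). With the muscle and skin covariates the list median was 0.24 and 1 gene rose.
Collagen genes rose in 9 of 25 and fell in 1, led by Col8a2 (log2 FC 3.15 ± 0.30, adjusted p = 0.000327) and Col8a1 (1.57), the chains of collagen VIII, with Col1a1 at 0.81, while Col11a1 fell (-0.79, adjusted p = 0.0432). The collagen median of 0.09 was 0.15 without control replicate 4 and 0.16 with the covariates, where 0 rose and 1 fell. Col11a1 did not pass without control replicates 1, 2 and 3 and combination replicates 1, 2 and 3 (adjusted p up to 0.118). Metalloproteinases and their inhibitors rose in 10 of 29 and fell in 1 (median 0.25), and with the covariates 2 rose (median 0.16). The gelatinase gene Mmp2 rose by 1.05 and Mmp23 by 1.06, and the lysyl oxidase gene Loxl1, which crosslinks elastin, by 0.81. The urokinase receptor gene Plaur was the 1 that fell (-0.27, adjusted p = 0.0418), and Plaur did not pass without control replicates 1, 3 and 4 and combination replicates 1, 2 and 3 (adjusted p up to 0.105). In a list of 23 genes of fibroblast subsets 6 rose (26.1%), 2 fell (8.70%) and 15 did not pass (median 0.24), against 10.3% up and 8.72% down of all genes. It had 3 genes up without control replicate 2 or 3, and with the covariates its median turned to -0.04 with 1 gene up. Of these genes the contractile ones of myofibroblasts rose, namely Acta2 (1.13), Tagln (1.79) and Myl9 (1.53), whereas the fibroblast receptor genes Pdgfra (0.24) and Pdgfrb (0.38) did not pass (adjusted p = 0.125 and 0.111).
Of 15 TGF-beta ligands, receptors and targets 7 rose and 1 fell (median 0.34, and 0.22 with the covariates, where 3 rose), with the ligand genes Tgfb2 (1.47) and Tgfb3 (0.71) up and Tgfb1 down. Of 17 genes of the IGF axis 4 rose (23.5%) and 2 fell (11.8%), against 10.3% and 8.72% of all genes. The lower of the 2 that fell did so by 0.61 on the log2 scale. The IGF median was 0.13, and 0.20 without control replicate 3, and no gene of the axis passed with the covariates (median 0.07). The binding protein genes Igfbp2 (log2 FC 3.45 ± 0.54, adjusted p = 0.00304) and Igfbp6 (1.27) rose with Igf1, and Igf1r had a log2 FC of -0.19 (adjusted p = 0.279).

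Skeletal muscle genes rose in 23 of 26 with a median of 2.11, and the 4 combination arrays were above the 4 controls in all 26. Ckm, the muscle creatine kinase gene, read 6.26, 5.07, 7.34 and 6.56 in the control and 8.10, 10.03, 9.02 and 8.04 in the combination arrays (log2 FC 2.49 ± 0.53, adjusted p = 0.0134). The myosin gene Myh1 rose by 3.86, the oxygen carrier gene Mb by 2.53 and the titin gene Ttn by 3.42 (adjusted p = 0.00414 to 0.022). Combination replicate 2 was the highest and control replicate 2 the lowest array for Ckm. Myh1 did not pass without combination replicates 2 and 4 (adjusted p up to 0.0548), and without combination replicate 2 the list median was 1.76 with 19 genes up. With their own list level as a covariate no muscle or skin gene passed. Genes of skin keratinocytes and hair had list levels of 4.42 to 5.76 in control and 4.30 to 4.85 in combination arrays, with a median log2 FC of -0.38 (-0.20 without control replicate 4). Ivl, of involucrin, fell (log2 FC -1.49 ± 0.17, adjusted p = 0.000638), as did Dsg1a (-0.39, adjusted p = 0.0429), and Dsg1a did not pass without control replicates 2, 3 and 4 and combination replicates 1, 2, 3 and 4 (adjusted p up to 0.104). Krt5 had a log2 FC of -0.53 (adjusted p = 0.293). Adipocyte genes rose in 2 of 11 (18.2%, against 10.3% of all genes). These were Car3 (2.41) and the lipase gene Lpl (1.64), and Adipoq did not pass (1.82, adjusted p = 0.188). The adipocyte median of 0.65 was 0.13 without combination replicate 4, 5 rose without combination replicate 1 and none passed with the covariates. Endothelial genes rose in 2 of 24 (8.33%) and fell in 1 (4.17%), no more often than all genes (10.3% and 8.72%). Those that passed were Kdr (0.41) and Eng (0.39) up and the tight junction gene Cldn5 down (log2 FC -1.54 ± 0.18, adjusted p = 0.000659), and Pecam1 had a log2 FC of 0.27 (adjusted p = 0.466). Kdr did not pass without control replicates 1 and 4 and combination replicates 2 and 3 (adjusted p up to 0.101), and with the muscle and skin covariates Kdr turned to -0.29. The endothelial median of 0.04 turned there to -0.34, and without combination replicate 1 or 4 5 and 4 endothelial genes rose.

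**Figure D3:**
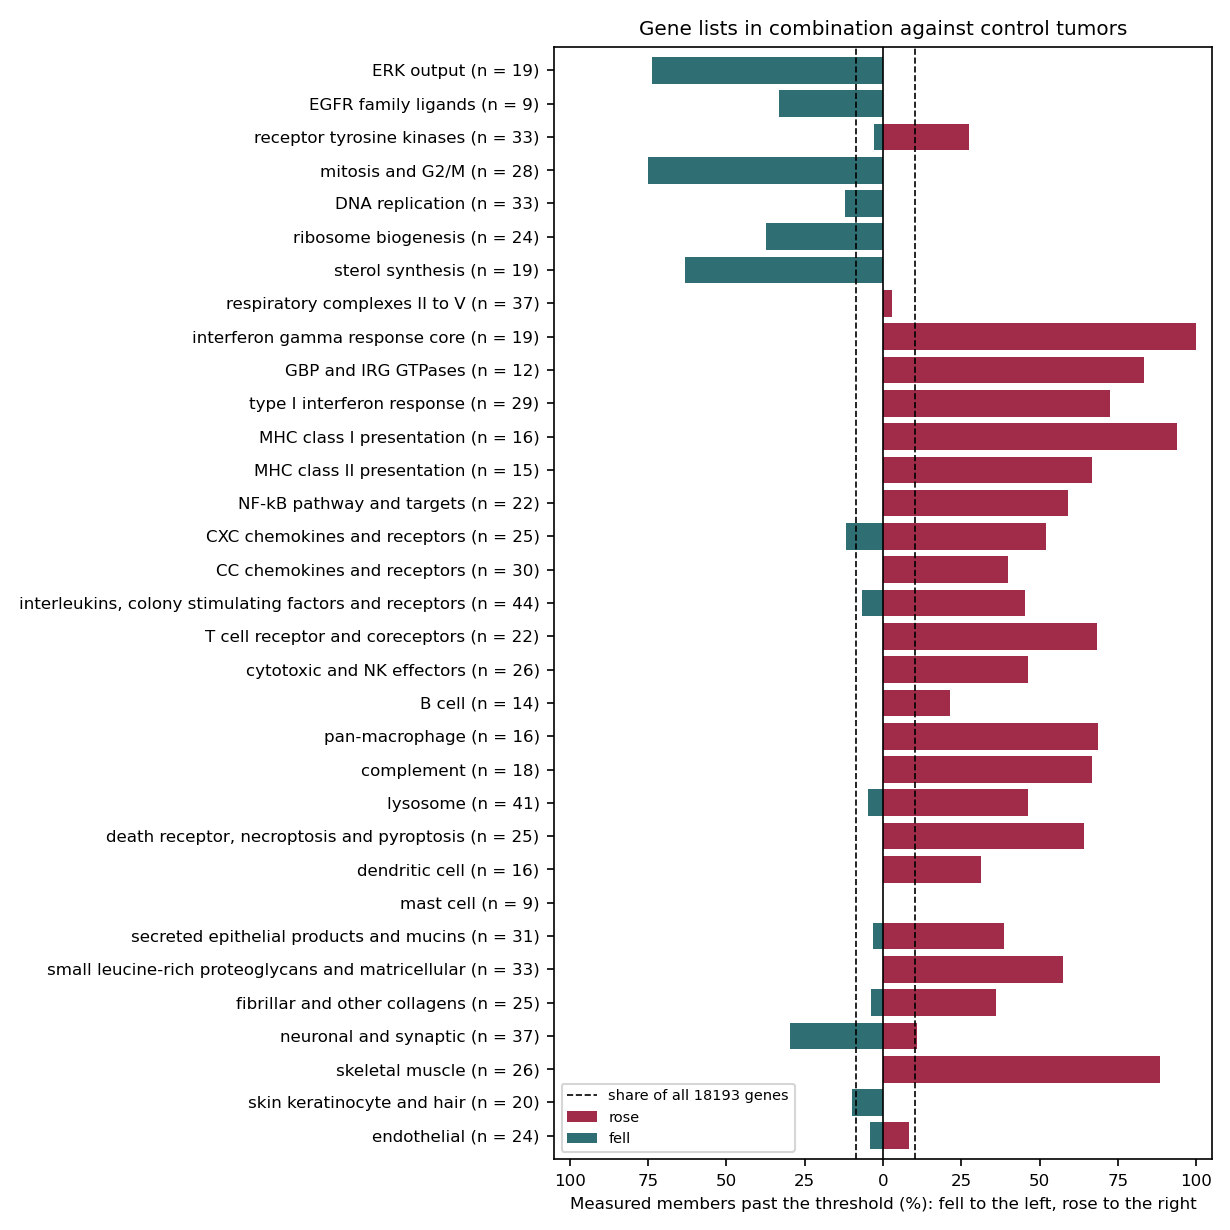
Share of measured members of 33 gene lists that rose (right) or fell (left) in combination against control tumors at an adjusted p under 0.05, with the share over all genes as dashed lines (10.3% up, 8.72% down). Interferon, antigen presentation, muscle and T cell lists extend to the right, and ERK output, mitosis and sterol synthesis lists to the left.

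**Figure D4:**
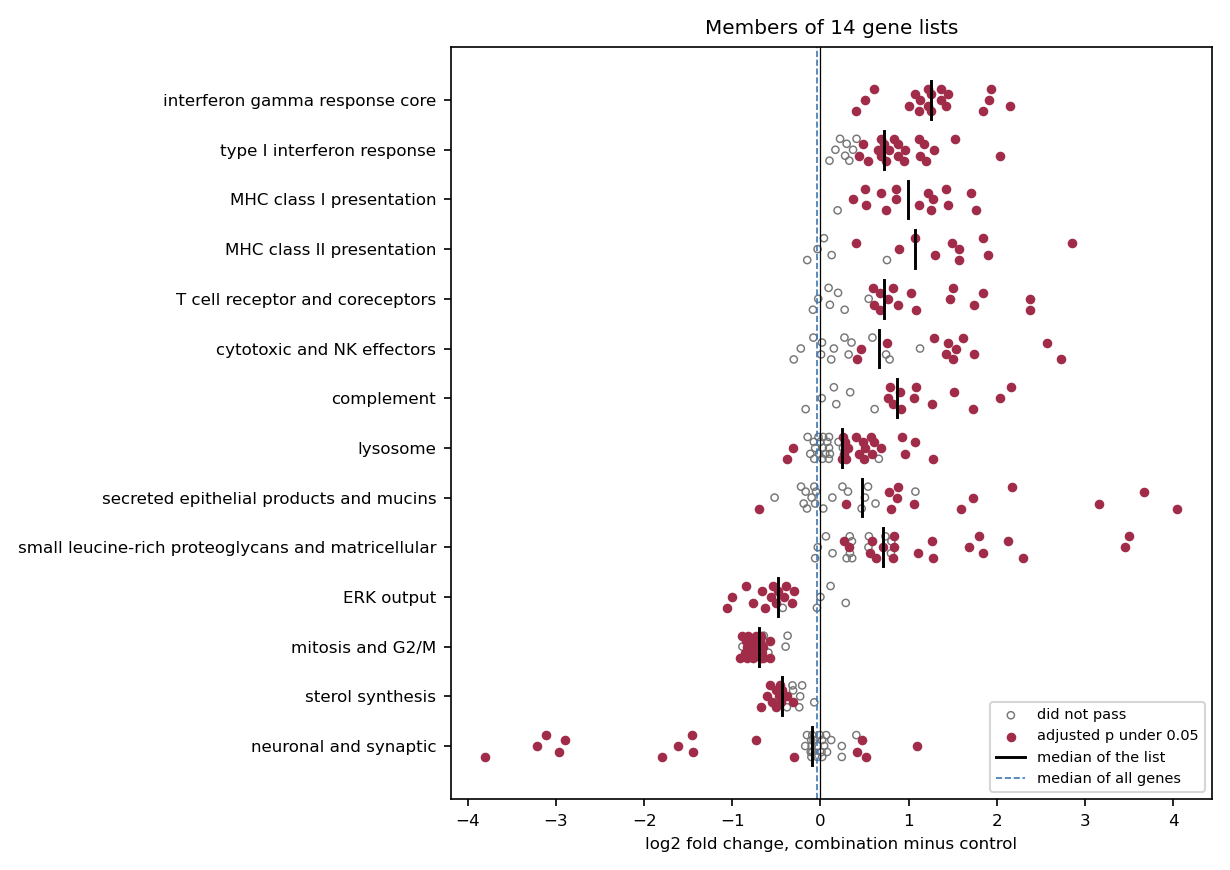
log2 FC (combination minus control) of each measured member of 14 gene lists, filled where the adjusted p was under 0.05 and open where it was not, with the list median (black bar) and the median of all genes (dashed line, -0.04). Members of the interferon gamma list all lie to the right of 0, whereas the neuronal list holds a few genes far to the left and many near 0.

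Whether the combination differed from each agent alone was tested for the named genes in separate fits. In combination against MEKi tumors 1.38% of 18193 genes rose and 2.65% fell, and against CD40 Ab tumors 3.69% rose and 2.52% fell. All MEKi tumors had tumor numbers over 10000 and all combination tumors lower ones, so that this difference and the treatment cannot be told apart there. These fits share the combination arrays with the comparison above, so their values are given side by side and not as support. Mmp7 differed from both single agents: its mean level was 6.79 ± 0.89 in CD40 Ab (SD, n = 4), 7.31 ± 0.46 in MEKi (n = 3) and 9.86 ± 0.26 in combination tumors. Its log2 FC was 2.55 ± 0.22, adjusted p = 0.00158 against MEKi and 3.07 ± 0.37, adjusted p = 0.00391 against CD40 Ab. Every combination array was above every array of the single-agent groups.
Muc4 was higher than under MEKi (1.23 ± 0.18, adjusted p = 0.0143) and CD40 Ab (2.79 ± 0.37, adjusted p = 0.00554). Btc was lower than under either agent (-1.68 ± 0.27, adjusted p = 0.0211, and -2.38 ± 0.20, adjusted p = 0.000962), and so were Ereg (-1.67 ± 0.18, adjusted p = 0.00398, and -1.52 ± 0.12, adjusted p = 0.000749), Has3 (-1.71 ± 0.18, adjusted p = 0.00417, and -2.11 ± 0.22, adjusted p = 0.00194), Nptx1 (-2.08 ± 0.25, adjusted p = 0.00668, and -2.59 ± 0.25, adjusted p = 0.00163) and Rcan2 (-1.53 ± 0.24, adjusted p = 0.0193, and -2.67 ± 0.29, adjusted p = 0.00229). MEKi replicate 1 stood apart from the other MEKi arrays, with a muscle list level of 9.72. Without it, the log2 FC against MEKi was 2.64, adjusted p = 0.00262 for Mmp7, 1.18, adjusted p = 0.0258 for Muc4, -2.04, adjusted p = 0.000934 for Btc, -1.80, adjusted p = 0.00314 for Ereg, -1.82, adjusted p = 0.00408 for Has3, -1.94, adjusted p = 0.0119 for Nptx1 and -1.71, adjusted p = 0.0126 for Rcan2. The values against MEKi were less stable with another array left out: Muc4 did not pass without MEKi replicate 3 (adjusted p up to 0.0696), Btc did not pass without MEKi replicate 3 and combination replicates 1, 2, 3 and 4 (adjusted p up to 0.0944) and Rcan2 did not pass without MEKi replicate 3 and combination replicates 1, 3 and 4 (adjusted p up to 0.0742). Mmp7, Ereg, Has3 and Nptx1 passed against MEKi with each array left out in turn, and the 7 genes did so against CD40 Ab.

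Among the interferon and T cell genes above, Cxcl10, Ifng, Cd8a and Pdcd1 did not pass against either agent alone. Cxcl10 was 0.04 ± 0.34, adjusted p = 0.968 against MEKi and 0.97 ± 0.30, adjusted p = 0.103 against CD40 Ab. Ifng was 0.65 ± 0.41, adjusted p = 0.469 and 0.59 ± 0.31, adjusted p = 0.31, Cd8a 0.73 ± 0.36, adjusted p = 0.345 and 0.89 ± 0.23, adjusted p = 0.0629, and Pdcd1 1.11 ± 0.26, adjusted p = 0.0697 and 0.86 ± 0.22, adjusted p = 0.0648. The MEKi arrays of Ifng, at 4.72, 4.67 and 5.78, spread over more than 1 log2 unit, and a difference that misses the threshold with 3 arrays does not show that levels were alike. Other named members of these lists did pass against CD40 Ab. Bcl11b (1.23, adjusted p = 0.0194), Cd8b1 (1.12, adjusted p = 0.0311), Nkg7 (1.03, adjusted p = 0.0414) and Ifngr1 (0.47, adjusted p = 0.0342) were higher, and Socs2 (-0.49, adjusted p = 0.0133) was lower. Against MEKi, Ifngr1 was higher (0.36, adjusted p = 0.0364). The rises were weak calls: Bcl11b did not pass without CD40 Ab replicate 2 or combination replicate 1, 2 or 4, and Cd8b1 not without CD40 Ab replicate 1, 2 or 4 or combination replicate 1 (adjusted p up to 0.0593 and 0.0888). Nkg7 was lost in 7 of 8 and Ifngr1 in 6 of 8 omissions against CD40 Ab, and Ifngr1 in 6 of 7 against MEKi (adjusted p up to 0.106, 0.0858 and 0.117). The presentation genes H2-DMb2 (1.39, adjusted p = 0.0205) and Ctss (0.47, adjusted p = 0.0207) were higher than under CD40 Ab too, but not without combination replicate 1 or 2 (adjusted p up to 0.0581 and 0.0548), and so were Ccl2 (1.33, adjusted p = 0.01) and Cxcl16 (0.69, adjusted p = 0.007), which passed with each array left out. Other genes separated the combination from 1 agent. Dusp6 and Etv4 were lower than under CD40 Ab (-0.52 ± 0.07, adjusted p = 0.0074, and -0.55 ± 0.07, adjusted p = 0.00549), and against MEKi they were at -0.43 ± 0.15, adjusted p = 0.176 and -0.20 ± 0.09, adjusted p = 0.303. Ogn, Pamr1 and Pigr were higher than under CD40 Ab by 3.03, 3.33 and 2.54 (adjusted p = 0.0023, 0.000288 and 0.00445). Hmga2 and Kcnab1 were lower than under CD40 Ab by similar amounts, at -2.25 ± 0.11, adjusted p = 9.61e-05 and -2.59 ± 0.14, adjusted p = 9.61e-05. Against MEKi, Hmga2 was at -0.0008 (adjusted p = 0.999) and Kcnab1 at 0.55 (adjusted p = 0.158). Ogn (-1.56, adjusted p = 0.366), Pamr1 (0.185, adjusted p = 0.797) and Pigr (-0.33, adjusted p = 0.778) did not pass against MEKi either. Lower than under MEKi alone were S100a8 (-1.36 ± 0.25, adjusted p = 0.0343), the siderophore-binding protein gene Lcn2 (-1.68 ± 0.22, adjusted p = 0.00819), Ccl20 (-1.80 ± 0.29, adjusted p = 0.0211), Mmp2 (-1.54 ± 0.24, adjusted p = 0.019) and Pdgfra (-1.44 ± 0.12, adjusted p = 0.00143), of which all but Pdgfra had risen against control. Krt5 was also lower than under MEKi (-3.06 ± 0.32, adjusted p = 0.00374), and skin and hair genes had list levels of 6.34 to 6.99 in the MEKi arrays. Without MEKi replicate 1, S100a8 was at -1.0, adjusted p = 0.00596, Lcn2 at -1.64, adjusted p = 0.0157, Ccl20 at -1.68, adjusted p = 0.036, Mmp2 at -1.20, adjusted p = 0.00132, Pdgfra at -1.35, adjusted p = 0.00209 and Krt5 at -3.49, adjusted p = 0.000205. Cd68, of the macrophage list, was higher than under either agent (0.96 ± 0.16, adjusted p = 0.0215 against MEKi, and 0.67 ± 0.11, adjusted p = 0.0125 against CD40 Ab), and without MEKi replicate 1 its value against MEKi was 1.11, adjusted p = 0.0077. Of these genes, Lcn2, Pdgfra and Krt5 passed against MEKi with each array left out, while S100a8 did not pass without MEKi replicate 3 and combination replicates 1, 2, 3 and 4 (adjusted p up to 0.0888), Ccl20 did not pass without MEKi replicate 3 and combination replicate 2 (adjusted p up to 0.0928), Mmp2 did not pass without combination replicates 1, 2, 3 and 4 (adjusted p up to 0.0676) and Cd68 did not pass without MEKi replicates 2 and 3 and combination replicates 1, 2, 3 and 4 (adjusted p up to 0.0929).

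**Figure D5:**
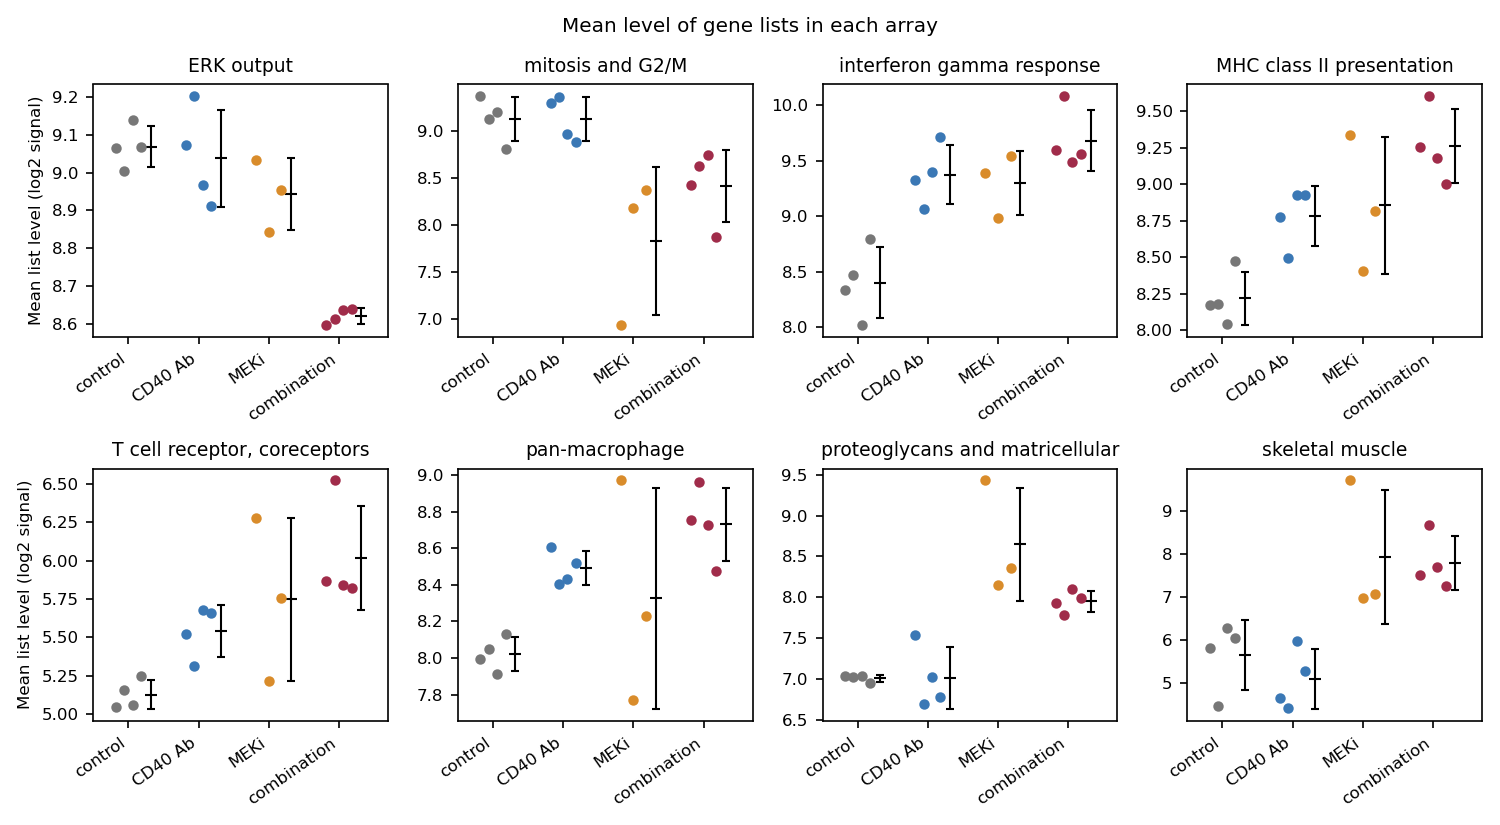
Mean log2 signal over the measured members of 8 gene lists by group, each point being 1 array, with group mean and SD (bars; n = 4 control, 4 CD40 Ab, 3 MEKi and 4 combination). ERK output is lowest in the combination arrays, and combination replicate 2 and MEKi replicate 1 stand high in the T cell and skeletal muscle panels.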

How the data were processed

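Total RNA from tumor pieces, 200 ng a sample, was amplified and labeled by 3' in vitro transcription for Affymetrix mouse expression arrays, 1 per tumor. The authors processed the scanned intensities in Chipster by RMA, which corrects background, quantile normalizes the arrays and summarizes probes, and deposited log2 signals per probe set. The software version is not given in the sources used here. Quantile normalization gives all arrays 1 distribution, so a shift of most genes cannot be seen, and fold changes of dim probe sets are understated. The table had no value column without a sample (0 such columns).

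Of 45101 probe sets, 64 controls were left out and 45037 tested, of which 34945 carried 1 gene symbol, 932 several and 9160 none in the platform annotation. Each of the 18193 genes was read from the probe set that named it alone and was highest on average over all 15 arrays. Groups were compared on their own arrays with limma 3.58.1 in R 4.3.3 (lmFit and eBayes, two-sided), adjusted by Benjamini-Hochberg over all 45037 probe sets at 0.05, as in the study's methods. Values after ± are standard errors for log2 FC and SD for levels. Every adjusted p for a gene comes from these fits, and the fits were tested on simulated data. Array measures were compared by exact permutation tests. Tables were handled in Python 3.11.15 with pandas 2.3.3 and numpy 2.4.6.

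The genes, the 69 gene lists (1487 genes, 1356 measured, 115 in more than 1 list) and the tests were chosen with earlier results of these data known, so no p was computed over a list. Genes were named as the 15 largest rises and falls among called genes whose arrays did not overlap, up to 4 called members a list and direction with the lowest adjusted p, and 97 genes of interest (91 measured). Alternatives were a fit of all 15 arrays, other variance priors and array weights, other scalings, filters and probe set choices, a replicate block, omission of each array, tumor numbers under 10000, the muscle and skin list levels as covariates and stricter thresholds. Labels call each array a separate tumor. The MEKi group has 3 arrays, and why it is smaller is not given in the sources used here.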

Additional observations from a re-analysis of the deposited data

Results flagged for a closer look

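In 35 of 602 groups of 4 arrays checked (5.81%), over the genes and gene lists described, 1 array lay far from the other 3, and chance gives about 1 in 20. Each bracket gives the log2 level of that array, the range of the other 3, and the gap to the nearest of them as a share of the whole range, which had to exceed Dixon's critical value for 4 arrays. The share of such groups was near that of chance, and their distribution over arrays was not tested. Combination replicate 2 was the array concerned in 9 groups and combination replicate 3 in 6.

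Among combination tumors, replicate 2 stood above the others for Cd3d (8.62 against 7.41 to 7.43, 0.983), Cd68 (9.30 against 8.85 to 8.91, 0.867), Cd8a (7.60 against 6.63 to 6.79, 0.835), Il1b (8.60 against 8.17 to 8.22, 0.884) and Rcan2 (4.76 against 3.98 to 4.11, 0.833). The same array was the highest for the death receptor, necroptosis and pyroptosis list (8.30 against 8.02 to 8.04, 0.911), the GBP and IRG GTPases list (10.54 against 10.16 to 10.21, 0.859), the CXC chemokines and receptors list (7.62 against 7.28 to 7.30, 0.956) and the T cell receptor and coreceptors list (6.53 against 5.83 to 5.87, 0.936). Replicate 3 was the lowest for Bcl11b (6.31 against 7.10 to 7.22, 0.868), Ccl2 (9.02 against 9.75 to 9.86, 0.869) and Dusp6 (10.18 against 10.35 to 10.37, 0.895), and the highest for Cd163 (6.44 against 4.26 to 4.47, 0.904) and Prelp (8.04 against 6.90 to 7.01, 0.904) and the fibroblast subsets list (7.65 against 7.39 to 7.39, 0.97). Replicate 1 was the lowest for Atp6v1h (9.07 against 9.28 to 9.31, 0.875) and Fosl1 (7.50 against 8.09 to 8.11, 0.967) and the highest for the receptor tyrosine kinases list (7.10 against 7.06 to 7.06, 0.871). Replicate 4 was the lowest for Kcnab1 (4.72 against 5.13 to 5.21, 0.837) and the highest for Igf1 (8.75 against 8.10 to 8.14, 0.938) and Pamr1 (9.12 against 8.54 to 8.58, 0.931).

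Among control tumors, replicate 1 was the lowest for Cd80 (4.90 against 5.10 to 5.14, 0.833) and Cdkn1c (4.62 against 4.91 to 4.94, 0.906), and replicate 2 for Ereg (7.28 against 7.41 to 7.42, 0.929), Map3k14 (5.49 against 5.72 to 5.76, 0.852), Mb (4.66 against 6.07 to 6.32, 0.849) and Pigr (4.65 against 6.99 to 7.07, 0.967). Replicate 3 was the lowest for Pdcd1 (4.66 against 4.92 to 4.96, 0.867), Spred2 (9.78 against 9.85 to 9.86, 0.875) and Tnfsf13b (5.88 against 6.27 to 6.35, 0.83) and the highest for Vim (13.06 against 13.01 to 13.01, 1). Replicate 4 was the highest for Cxcl11 (7.22 against 6.49 to 6.58, 0.877) and Il18 (8.93 against 8.36 to 8.45, 0.842) and the macrophage polarization, M1-like list (6.15 against 5.99 to 6.01, 0.864), and the lowest for the small leucine-rich proteoglycans and matricellular list (6.94 against 7.03 to 7.03, 0.947). In Fosl1, Ccl2, Cd3d, Cd8a, Pigr and the T cell list, the 2 groups did not overlap with or without the array that stood apart.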

How the results depend on the processing

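The number of probe sets called in combination against control was 6450 of 45037 tested. It stayed within 1.5 times of this with all 15 arrays in 1 fit (5021), weights for arrays, an intensity trend and robust prior, quantile normalization of the log2 values, median centring (7613) and tumor numbers under 10000. With fewer probe sets tested, the number was 6424 of 18405 at a minimum mean level of 6 and 4416 of 36082 among unique probe sets, so these counts are not on the same base. With 1 probe set per gene it was 4141 and with the mean over the probe sets of a gene 3910, where fewer features were tested. Against MEKi and CD40 Ab 1264 and 2019 probe sets were called. The counts against control, MEKi and CD40 Ab were 938, 466 and 445 with a log2 FC of at least 1, 2770, 322 and 365 at an adjusted p of 0.01, and 1149, 48 and 306 with the mean levels of the muscle and skin lists as covariates. The fit of all 15 arrays gave 3663 against MEKi, and tumor numbers under 10000 gave 973 against CD40 Ab. Leaving out 1 array in turn gave 4077 (without control replicate 1) to 6035 (without combination replicate 3), 431 (without MEKi replicate 3) to 2089 (without MEKi replicate 1) and 933 (without combination replicate 2) to 1908 (without combination replicate 3), respectively. Without control replicate 3 the count against control was 4281, without each combination array that against MEKi was 438 to 642, and without CD40 Ab replicate 2, 3 or 4 or combination replicate 1, 2 or 4 that against CD40 Ab was 933 to 1316. The cause of these differences was not tested.

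With the replicate number as a block, the counts were 6016, 180 and 935. The numbers are not known to pair the tumors: same-numbered combination and control arrays correlated in their deviations with r = 0.0186 to 0.184, and 2 of 4 combination arrays were nearest to their own number.

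Of 232 genes named, 199 passed against control. Of these, 29 lost the call with all 15 arrays in 1 fit, 8 with the block, 11 to 32 without 1 array, 17 with tumor numbers under 10000 and 122 with the muscle and skin covariates, in which combination and muscle level move together. The covariates also turned the log2 FC of Blnk (-0.43), Ckm (-0.28), Kdr (-0.29), Spib (-0.25), Stab1 (-0.14), Cldn18 (0.0223), Map2k1 (0.0452) and Rrm2 (0.0015), and the mean over its probe sets turned Rps6ka3 (-0.0658). Further quantile normalization turned the sign of the endothelial and fatty acid synthesis medians, and median centring those of the endothelial, respiratory chain and unfolded protein response lists, all of which lay near 0. The number of arrays limits the precision, and 45037 tests over 8 arrays cannot show small changes.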
